A study of Mus musculus with 3 samples.

Results

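The solute carrier genes described here were the protein-coding genes with a symbol that starts with Slc and a digit and with a mean of at least 100 counts over the libraries, which gave 152 of the 377 Slc genes in the table and of 56748 genes in all. The members were thus selected on their counts, and their levels are a description. Of the other Slc genes, 218 lay under the minimum, 88 of them with 0 counts in every library, and 7 were left out by name (Slc2a1, Slc2a4, Slc8a1, Slc10a6, Slc11a2, Slc39a14 and Slc40a1). The members nearest to the minimum on the inside were Slc18b1 with 83, 115 and 106 counts (mean 101), Slc25a29 with 97, 98 and 118 (mean 104) and Slc7a7 with 109, 122 and 88 (mean 106), in the order vehicle, IL-6 and OSM. On the outside lay Slc9a3r1 with 97, 70 and 128 counts (mean 98.3), Slc25a27 with 88, 101 and 87 (mean 92) and Slc16a9 with 103, 113 and 48 (mean 88).

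Solute carriers are membrane proteins that move ions, nutrients, metabolites and metals across the plasma membrane or across the membranes of organelles, mostly by coupling to another solute or by following its gradient, and not by splitting ATP. In the heart they feed the cell with fatty acids, lactate, amino acids, taurine and creatine, set cytosolic pH, chloride and phosphate, and exchange ATP for ADP between the mitochondrial matrix and the cytosol. The numbered families group proteins by sequence, so 1 family can hold carriers of different cargo.

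RNAseq was performed on adult ventricular cardiomyocytes (ACMs) isolated from the hearts of wild-type (WT) mice of 8 to 10 weeks. Mice of both sexes were used. The cells were kept in serum-free medium with 0.1% BSA, the contraction inhibitor BDM, insulin-transferrin-selenium and lipids, and all groups shared these. They received vehicle (0.1% BSA), 10 ng/mL of human IL-6 or 10 ng/mL of mouse oncostatin-M (OSM), both cytokines of the family that signals through gp130, and were harvested after 16 h. RNA samples were pooled, from a number of hearts that is not given, and each condition was 1 library. There are thus no replicates, a difference between libraries has no replicate check, and no test was possible.

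The libraries held 24939980 counts with vehicle, 26362446 with IL-6 and 30773001 with OSM, and the members took 1.36%, 1.39% and 1.48% of them. The summed level of 8 cardiomyocyte markers was 26919, 27665 and 30490 CPM (counts scaled to the library total), and those of 8 endothelial, 8 fibroblast and 8 smooth muscle and pericyte markers lay between 5.46 and 44.5 CPM in each library. The summed level of 8 macrophage markers was 23.7, 24.0 and 54.4 CPM in the vehicle, IL-6 and OSM libraries. Of this list Cd68, a lysosomal protein, gave 382, 448 and 1419 counts, while Ptprc, C1qa and Cd163 had 0 counts in every library. In pooled RNA, fewer cells of a type and less RNA per cell cannot be told apart, and this holds for each difference below.

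The deposited FPKM values are per length and allow levels to be compared between genes. Median FPKM over the members was 5.61 with vehicle, 5.41 with IL-6 and 5.48 with OSM, and the range with vehicle ran from 0.384 for Slc16a7 to 1367 for Slc25a4. Slc25a4 encodes the adenine nucleotide carrier of heart and muscle mitochondria, which exports ATP from the matrix. It alone made up 37.4% of the members' summed FPKM with vehicle, 37.7% with IL-6 and 44.3% with OSM. The levels of the next members with vehicle were 208 FPKM for Slc25a5, 204 for Slc25a11, 196 for Slc25a3 and 120 for Slc3a2, and the 5 members of highest FPKM held 57.3% of the sum. Slc25a5 is a second adenine nucleotide carrier, Slc25a11 the 2-oxoglutarate carrier, Slc25a3 the phosphate carrier and Slc3a2 the heavy chain that brings amino acid exchangers to the cell surface. Below them came Slc20a2 at 89.8 FPKM, a sodium-phosphate cotransporter, Slc25a39 at 79.1 FPKM, which carries glutathione into mitochondria, the creatine transporter Slc6a8 at 69.4 FPKM, the glutamine and alanine transporter Slc38a2 at 68.2 FPKM and the large neutral amino acid exchanger Slc7a5 at 62.6 FPKM.

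**Figure D1:**
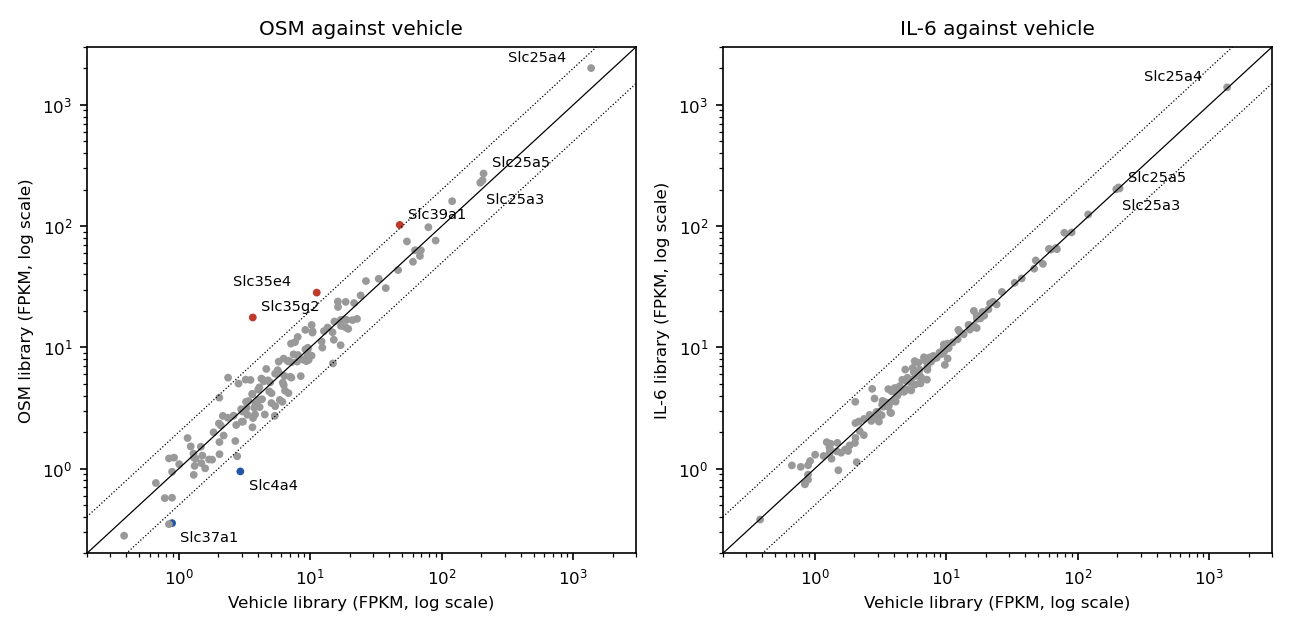
FPKM of the 152 solute carrier genes with OSM (left) and with IL-6 (right) against vehicle, both axes on a log scale, 1 point per gene, with a solid line at equal values and dotted lines at 2-fold. With OSM, 3 called members (red) lie above the upper dotted line and 2 (blue) below the lower one, with IL-6 there are no called members, and Slc25a4 is the highest point in both panels.

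To compare the libraries, a log2 fold change was taken from the counts scaled with edgeR's TMM factors, and a 95% Clopper-Pearson interval was computed for each from its counts. It stands in brackets below. The interval takes in the error of counting alone, and copies of 1 molecule made by PCR may be among the reads. Higher or lower was called where all of the interval was past 2-fold. All 152 members had the 10 counts over a pair of libraries that a comparison needed.

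Between OSM-treated and vehicle-treated ACMs, 3 members were called higher and 2 were called lower. This is 1.97% and 1.32% of the members, against 3.74% and 5.43% of all 15537 compared genes, and against 2.62% and 3.83% of the 9441 protein-coding genes with the same minimum of counts. The members called higher were Slc35g2, Slc35e4 and Slc39a1, and those called lower were Slc4a4 and Slc37a1. The median log2 fold change of the members was -0.03, beside 0.00 over all compared genes and 0.02 over the protein-coding genes with that minimum. Of the 152 members, 111 lay within 0.5 of zero on the log2 scale (73.0%) and 143 within 1. The interval lay wholly above 0 for 50 members and wholly below for 63 (32.9% and 41.4%), beside 33.4% and 33.1% of all compared genes and 40.7% and 38.1% of those protein-coding genes.

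Slc35g2 (ENSMUSG00000070287, chromosome 9, 100434241 to 100453143, minus strand, GRCm39) had the largest difference among the members. It belongs to the Slc35 family, named for carriers of nucleotide sugars into the Golgi, but its own cargo is not established. It gave 147 counts with vehicle, 143 with IL-6 and 838 with OSM, which were 3.65, 3.32 and 17.6 FPKM. The OSM library stood apart from both others, which lay close together, and Slc35g2 rose 4.82-fold against vehicle, a log2 fold change of 2.27 (2.02 to 2.53). The deposited gene length is 1590 bases and the canonical GENCODE transcript has 4772, so its FPKM depends on the annotation. Its fold change does not use the length, but the counts were not retaken over the canonical transcript.

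Slc35e4 (ENSMUSG00000048807, chromosome 11, 3857021 to 3864664, minus strand), another member of the family without an established cargo, showed the same order of libraries. It had 868 counts with vehicle, 914 with IL-6 and 2587 with OSM, or 11.2, 11.0 and 28.3 FPKM. It rose 2.52-fold with OSM, by 1.33 on the log2 scale (1.22 to 1.45). No further annotated gene overlaps Slc35g2 or Slc35e4, and no other transcript held a near-identical copy of their sequence.

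Slc39a1 (ENSMUSG00000052310, chromosome 3, 90155479 to 90160919, plus strand) encodes ZIP1, which imports zinc at the plasma membrane. It had 2866 counts with vehicle, 3340 with IL-6 and 7222 with OSM, equal to 47.9, 52.1 and 102 FPKM, and was the highest in level of the called members. With OSM it rose 2.13-fold, by 1.09 on the log2 scale (1.03 to 1.15). Of its transcript, 45.3% is matched at 97% identity or more by other annotated transcripts, among them the pseudogene Slc39a1-ps with 24, 11 and 32 counts, so the counting could have split some reads. The call was lost with total counts as the scaling (1.03), with the gene length trend removed (0.84) and in an edgeR exact test for which a biological coefficient of variation (BCV) of 0.2 was assumed.

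Slc4a4 (ENSMUSG00000060961, chromosome 5, 89034345 to 89387512, plus strand) encodes the electrogenic sodium bicarbonate cotransporter NBCe1, which brings base into the cell. It had 843 counts with vehicle, 900 with IL-6 and 321 with OSM, or 2.94, 2.93 and 0.948 FPKM. The vehicle and IL-6 libraries were nearly equal, and Slc4a4 fell by 1.63 on the log2 scale with OSM (-1.82 to -1.45), which is 3.10-fold lower. A noncoding gene lies on the opposite strand within its span and had 0 counts in every library.

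Slc37a1 (ENSMUSG00000024036, chromosome 17, 31505766 to 31569713, plus strand) encodes an exchanger of glucose-6-phosphate and phosphate in the endoplasmic reticulum. It was a low member with 261, 255 and 123 counts, or 0.890, 0.812 and 0.355 FPKM, and fell 2.51-fold with OSM. Its log2 fold change was -1.33 (-1.65 to -1.01), close to the limit of a call. The call was lost when the counts were thinned to equal totals (-1.31), with FPKM and a pseudocount of 1 (-0.48, a scale that understates low genes) and with the gene length trend removed at its deposited length (-0.88). The pseudogene Gm8437, on the opposite strand within its span, had 1, 0 and 4 counts. Of the Slc37a1 transcript, 15.3% is matched at 97% identity or more by transcripts of another annotated gene, Gm30139.

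**Figure D2:**
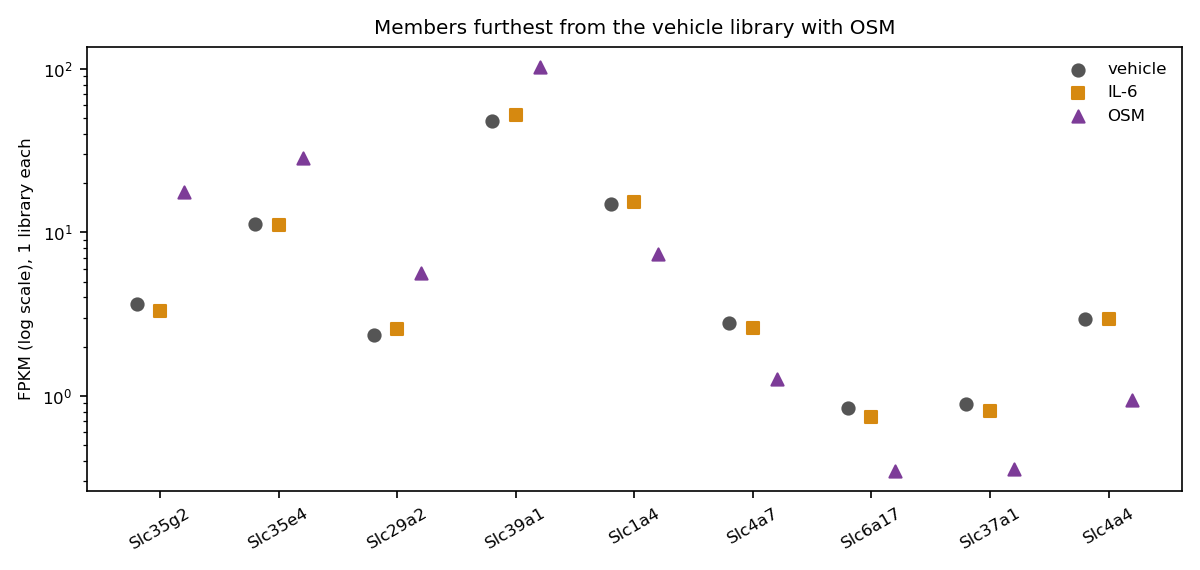
FPKM (log axis) of 9 solute carrier genes whose OSM-against-vehicle difference was at least 2-fold, in the vehicle (circles), IL-6 (squares) and OSM (triangles) libraries, 1 library each. In each gene the vehicle and IL-6 points are close to each other and the OSM point is apart, as for Slc35g2 at 3.65, 3.32 and 17.6 FPKM and Slc4a4 at 2.94, 2.93 and 0.948 FPKM.

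Members near a call carried nucleosides, amino acids or bicarbonate. Slc29a2, the equilibrative nucleoside transporter ENT2, had 181, 210 and 507 counts and a log2 fold change with OSM of 1.24, with the lower end of its interval at 1.00, just under 2-fold. It was called with DESeq2's size factors and in the exact test with a BCV of 0.2. A noncoding gene on the opposite strand at this locus had 16, 31 and 55 counts. Of the Slc29a2 transcript, 15.4% is matched at 97% identity or more by transcripts of another annotated gene. Slc6a17, a vesicular transporter of neutral amino acids, had 219, 207 and 107 counts and a log2 fold change of -1.27 (-1.62 to -0.93). Slc4a7, the electroneutral sodium bicarbonate cotransporter, had 1070, 1069 and 574 counts and -1.14 (-1.29 to -0.99). Slc1a4, which exchanges alanine, serine and cysteine, had 1478, 1625 and 864 counts and -1.02 (-1.14 to -0.89). Slc4a7 was called with total counts, Slc6a17 in the exact test with a BCV of 0.2, and Slc1a4 with the length trend removed.

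The difference between the OSM and vehicle libraries moved with gene length. Spearman's rho of the log2 fold change with length was -0.36 over the 152 members and -0.52 over 9441 protein-coding genes, all read from the same libraries, and is given as a description. Among the 38 shortest members (1466 to 3383 bases) the median was 0.18, beside 0.29 for other protein-coding genes of this length, and by the deposited lengths all 3 members called higher were among them. Among the 38 longest (6945 to 17236 bases) the median was -0.28, beside -0.37 for the others, and by the same lengths both members called lower were among them. Less the median of protein-coding genes of like length, the log2 fold change was 1.86 for Slc35g2, 1.14 for Slc35e4, 0.84 for Slc39a1, -1.19 for Slc4a4 and -0.88 for Slc37a1. Slc35g2, Slc35e4 and Slc4a4 thus stayed beyond 2-fold. The place of Slc35g2 and Slc37a1 in this order depends on the annotation, since their canonical transcripts have 4772 and 3455 bases where the deposited lengths are 1590 and 11596, and by these neither would be among the 38 shortest or the 38 longest. At the canonical lengths, a choice made after seeing the data, the value was 2.28 for Slc35g2 and -1.45 (-1.77 to -1.14) for Slc37a1, which was then called, whereas Slc39a1 stayed at 0.84 and uncalled. Among the members near a call, removal of the length trend left 1.06 for Slc29a2, -0.88 for Slc6a17, -0.33 for Slc4a7 and -1.15 for Slc1a4. Of the 152 members, 23 had another sign once the length trend was removed, and for 5 of them (Slc25a11, Slc30a9, Slc38a1, Slc7a1 and Slc7a11) the whole interval passed to the other side of 0. Of the cardiomyocyte markers, the long genes Ryr2 (28790 bases) and Ttn (117334 bases) were called lower, at -1.53 and -1.64, and the other 6 were not called. The part of the length trend in the calls was not tested further. Between IL-6 and vehicle, rho was -0.04 over the members.

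**Figure D3:**
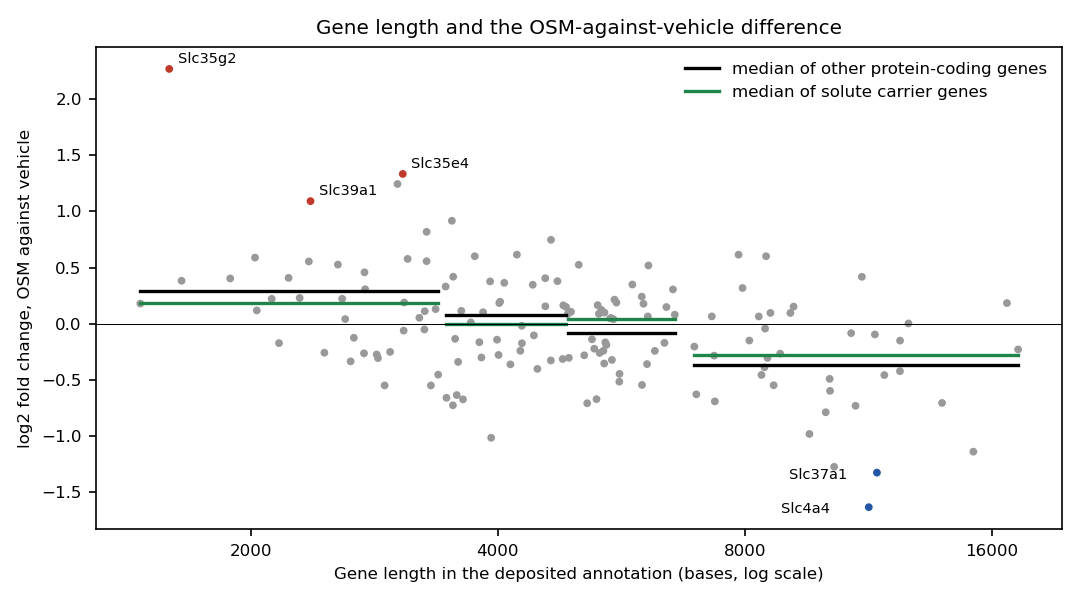
Log2 fold change of OSM against vehicle (y axis) against gene length in bases (x axis, log scale) for the 152 solute carrier genes, with called members in color and horizontal lines at the medians of the members (green) and of other protein-coding genes (black) in 4 length ranges of 38 members each. The members' median goes from 0.18 in the shortest range to -0.28 in the longest, with Slc35g2, Slc35e4 and Slc39a1 among the short genes and Slc4a4 and Slc37a1 among the long ones by their deposited lengths.

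Mitochondrial carriers of the Slc25 family were the largest class, with 32 members. None was called, the median log2 fold change with OSM was 0.10, and the interval lay above 0 for 15 and below for 13. Once the length trend was removed, the median turned to -0.08. The most abundant carriers were among those above. The class made up 63.5% of the members' summed FPKM with vehicle, 63.9% with IL-6 and 68.3% with OSM. Most of this was Slc25a4, whose own share, given above, rose by more from vehicle to OSM than that of the class. The other carriers of the class together did not rise in share. Shares over all 15537 compared genes, to read beside this and each class below, were 3.74% called higher and 5.43% lower. Intervals lay above 0 for 33.4% of them and below for 33.1%, or 40.7% and 38.1% of protein-coding genes with the members' minimum. Slc25a4 had 81395 counts with vehicle, 89010 with IL-6 and 141310 with OSM, or 1367, 1396 and 2011 FPKM, and a log2 fold change with OSM of 0.55 (0.54 to 0.57). Less the median for its length this was 0.30. Slc25a5 had 8658, 9121 and 13344 counts and a log2 fold change of 0.38 (0.34 to 0.42), which came to -0.03 after removal of the length trend. As much as 69.1% of the Slc25a5 transcript is matched at 97% identity or more by other transcripts, among them the pseudogene Gm5560 with 38, 37 and 52 counts. For Slc25a39 this share was 31.5% and for Slc25a3 18.9%.

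Other carriers that serve oxidative metabolism lay on both sides of 0. The log2 fold change with OSM was 0.21 (0.19 to 0.24) for the phosphate carrier Slc25a3, 0.22 (0.19 to 0.26) for Slc25a11 and 0.15 (0.09 to 0.21) for the carnitine-acylcarnitine carrier Slc25a20. Without the length trend these came to 0.30, -0.11 and 0.15, so that of Slc25a11 turned. The aspartate-glutamate carriers of the malate-aspartate shuttle, Slc25a12 and Slc25a13, had -0.28 (-0.33 to -0.24) and -0.16 (-0.26 to -0.07). Carriers of cofactors were also below 0, with -0.32 (-0.40 to -0.25) for the NAD carrier Slc25a51 and -0.55 (-0.70 to -0.39) for the coenzyme A carrier Slc25a42, and came to -0.23 and -0.45 without the length trend.

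Paired carriers of the same cargo did not always go the same way. The pyrimidine nucleotide carriers Slc25a33 and Slc25a36 lay on opposite sides. Slc25a33 had 776, 766 and 1213 counts and a log2 fold change of 0.40 (0.27 to 0.53). Slc25a36 had 1305, 1403 and 781 counts and -0.98 (-1.11 to -0.85), the lowest value of the class. Slc25a33 is a short gene (1887 bases) and Slc25a36 a long one (9594 bases), and after removal of the length trend the values were -0.01 and -0.58. The mitoferrins, which bring iron into mitochondria, were at 0.60 (0.48 to 0.72) for Slc25a28 and 0.18 (0.02 to 0.34) for Slc25a37. The ATP-magnesium and phosphate carriers were at 0.61 (0.38 to 0.85) for Slc25a25, which had 232, 271 and 420 counts, and 0.17 (0.02 to 0.31) for Slc25a23.

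**Figure D4:**
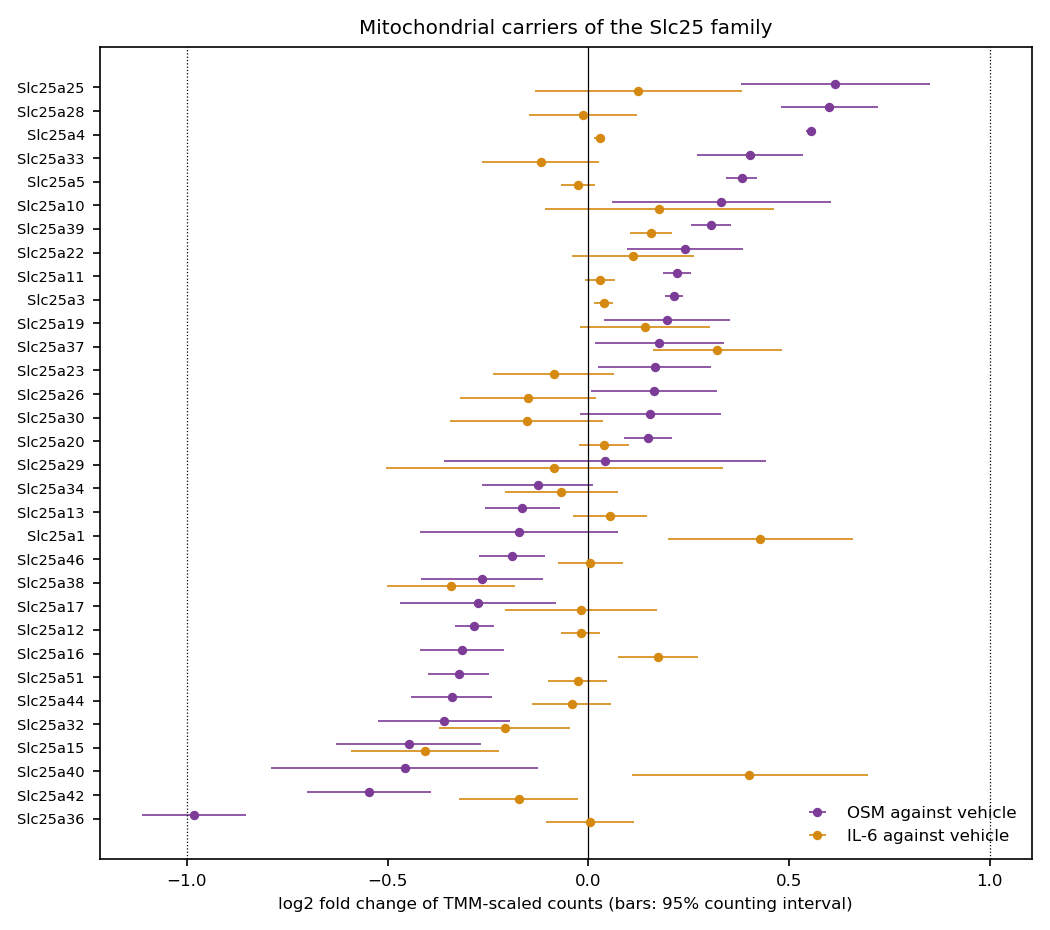
Log2 fold change of TMM-scaled counts of the 32 mitochondrial carriers (x axis) for OSM against vehicle (purple) and IL-6 against vehicle (orange), with 95% counting intervals as bars and dotted lines at 2-fold. The OSM values spread from -0.98 for Slc25a36 to 0.61 for Slc25a25, with none called, and both sets share the vehicle library.

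Carriers of amino acids, taurine, creatine and peptides gave 24 members, with a median log2 fold change of -0.24 for OSM against vehicle, none called, 5 intervals above 0 and 14 below. The median was -0.07 without the length trend. The exchanger of leucine and other large neutral amino acids is a pair of chains. Its light chain Slc7a5 had 5875, 6434 and 7003 counts and a log2 fold change of 0.01 (-0.04 to 0.06), while its heavy chain Slc3a2, which also serves other light chains, had 10710, 11931 and 16923 counts and 0.42 (0.38 to 0.45). Slc7a6, another light chain, was at 0.40 (0.26 to 0.55) with OSM and 0.42 with IL-6.

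Several transporters of single amino acids and of amino acid derivatives had values below 0. Slc7a11, the light chain of the cystine and glutamate exchanger, had 2405, 2960 and 1743 counts, so IL-6 was the highest and OSM the lowest library, and a log2 fold change with OSM of -0.71 (-0.80 to -0.62). As a gene of 13922 bases it came to 0.10 after removal of the length trend. The glycine transporter Slc6a9 had 2213, 2544 and 1601 counts and -0.71 (-0.80 to -0.62), which remained -0.70 without the length trend. The leucine facilitator Slc43a2 had 1558, 2036 and 1066 counts and -0.79 (-0.90 to -0.68), or -0.39 without it. The taurine transporter Slc6a6 was at -0.39 (-0.46 to -0.32), the creatine transporter Slc6a8 at -0.14 (-0.18 to -0.10) and Slc38a2 at -0.27 (-0.30 to -0.23). Without the length trend these were at -0.10, -0.05 and 0.02, so that of Slc38a2 turned. The highest value in the class, 0.61, was that of Slc7a6os, a gene named for its place on the strand opposite Slc7a6 that encodes no carrier.

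The class of nucleotide sugars and other ER and Golgi substrates gave 23 members, with 2 called higher and 1 lower. The 2 called higher, Slc35g2 and Slc35e4, have no established cargo and stand in this class with their family. Beside them, 3.74% and 5.43% of all 15537 compared genes were called. The class median log2 fold change with OSM was 0.08 (0.14 without the length trend), and 10 intervals lay above 0 and 6 below. Within the class, the 19 members of the Slc35 family had a median of 0.23, and the 3 of the Slc37 family -0.31, or 0.25 and -0.55 without the length trend. Carriers with a known cargo that lay above 0 were Slc35c1 for GDP-fucose, with 236, 336 and 492 counts and 0.82 (0.59 to 1.05), Slc35b2 for the sulfate donor PAPS at 0.58 (0.45 to 0.70), and Slc35b1, which exchanges ATP and ADP at the ER, at 0.41 (0.31 to 0.50). The most abundant members were Slc35f5, with 60.4, 64.9 and 50.8 FPKM and -0.25 (-0.31 to -0.19), and Slc35b1, with 26.5, 28.7 and 35.2 FPKM.

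Carriers of transition metals and heme gave 18 members with a median of 0.10 (0.11 without the length trend), 1 called higher, and 5 intervals on each side of 0. Apart from Slc39a1, the zinc importers of the Slc39 family and exporters of the Slc30 family lay between -0.64 for Slc30a2 and 0.42 for Slc30a7. Slc48a1, which carries heme out of endosomes and lysosomes, was the most abundant member of the class with vehicle. It had 3782, 3639 and 6140 counts, or 54.3, 48.8 and 74.7 FPKM, and a log2 fold change with OSM of 0.46 (0.40 to 0.52). Hdac7, which overlaps Slc48a1 on the opposite strand, had 247, 267 and 808 counts.

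Acid-base and anion exchangers gave 14 members with a median of -0.27 (-0.16 without the length trend), 1 called lower, 2 intervals above 0 and 9 below. The base importers Slc4a4 and Slc4a7 had the lowest values in the class. Without the length trend, as given above, Slc4a4 stayed beyond 2-fold and Slc4a7 did not. The chloride-bicarbonate exchanger Slc4a3, its most abundant member, had 3323, 3345 and 4198 counts, or 15.3, 14.4 and 16.4 FPKM, and a log2 fold change of 0.10 (0.03 to 0.16). The sodium-proton exchanger Slc9a2 had 157, 169 and 120 counts and a log2 fold change of -0.63 (-0.98 to -0.28). Slc4a1ap and Slc9a3r2, which share the symbol but encode kanadaptin and a scaffold for exchangers, were at -0.24 and -0.34. Leaving out these and Slc7a6os, a choice made after seeing the data, left 149 members and the same 5 calls.

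**Figure D5:**
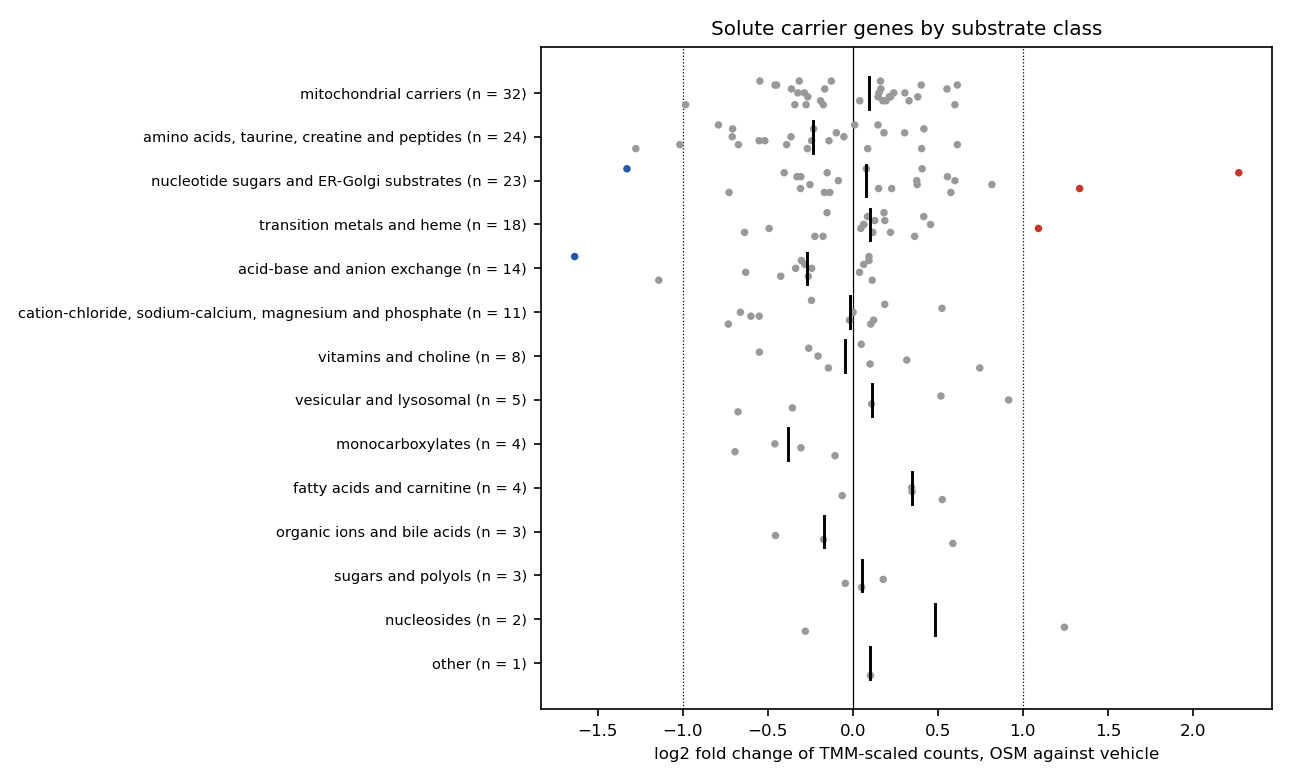
Log2 fold change of TMM-scaled counts for OSM against vehicle (x axis) of each solute carrier gene, in rows by class of cargo, with a black bar at the class median, called members in color and dotted lines at 2-fold. Class medians run from -0.38 for the monocarboxylate carriers (n = 4) to 0.48 for the nucleoside carriers (n = 2), and the 5 called members are in 3 classes. Classes were set by gene or by family, so a member such as Slc35g2 or Slc35e4 can stand in one without an established cargo.

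In the remaining classes no member was called. Cation-chloride, sodium-calcium, magnesium and phosphate transporters (11 members) had a median of -0.02 (-0.08 without the length trend), from -0.73 for the sodium-potassium-chloride cotransporter Slc12a2 to 0.52 for Slc12a9. Without the length trend these 2 came to -0.29 and 0.53. Slc8b1, with 139, 127 and 104 counts, was at -0.66, and at -0.79 without the length trend, which is lower than Slc12a2. Slc12a2 had 1004, 1006 and 715 counts, whereas the potassium-chloride cotransporter Slc12a7 had 3070, 3388 and 3635 counts and a log2 fold change of 0.00 (-0.07 to 0.07). Fuel carriers at the cell surface had values on both sides of 0. The fatty acid transport proteins Slc27a1 and Slc27a4 were at 0.35 each (0.28 to 0.42 and 0.24 to 0.46), and the carnitine transporter Slc22a5 at -0.06 (-0.22 to 0.10). Slc22a4, grouped with these by class and not counted here as a fuel carrier, was at 0.53 (0.36 to 0.69). Without the length trend Slc27a1, Slc27a4, Slc22a5 and Slc22a4 came to 0.44, 0.32, -0.25 and 0.27. The lactate and pyruvate carrier Slc16a1 had 5214, 5340 and 5735 counts and -0.10 (-0.16 to -0.05), or -0.13 without the length trend. All 4 members of its class had intervals below 0. The lowest value was that of Slc16a10, which carries aromatic amino acids, at -0.69 (-0.84 to -0.54), or -0.47 without the length trend. With fewer than 5 members, such classes are too small for their medians to say more than these values.

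Among the other small classes, Slc66a1, which exports cationic amino acids from lysosomes, had the highest value of the 5 vesicular and lysosomal members. It had 181 counts with vehicle, 339 with IL-6 and 404 with OSM, so both cytokine libraries stood above vehicle, with log2 fold changes of 0.81 (0.54 to 1.07) for IL-6 and 0.92 (0.66 to 1.18) for OSM. These share the vehicle library. The reduced folate carrier Slc19a1 had 379, 347 and 752 counts and a log2 fold change of 0.75 (0.57 to 0.93) with OSM, the highest of the 8 vitamin and choline members. The choline transporter-like Slc44a2 was the lowest of them with -0.55 (-0.65 to -0.45).

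Between IL-6-treated and vehicle-treated ACMs, 0 members were called in either direction. Among all 15472 compared genes 1.77% were called higher and 1.74% lower, and among 9439 protein-coding genes with the members' minimum of counts these shares were 0.0318% and 0.0106%. The members' median was -0.01, with 147 of 152 within 0.5 of zero and all 152 within 1. The interval lay above 0 for 30 members and below for 28 (19.7% and 18.4%, beside 19.6% and 19.1% of all compared genes and 20.6% and 20.2% of those protein-coding genes). The lowest value was that of Slc41a2, a magnesium transporter, with 282, 164 and 363 counts in the vehicle, IL-6 and OSM libraries and a log2 fold change with IL-6 of -0.88 (-1.17 to -0.60). The highest after Slc66a1 were Slc46a3, a lysosomal carrier, with 170, 303 and 168 counts and 0.73 (0.46 to 1.01), and Slc38a9, a lysosomal arginine sensor, with 283, 481 and 380 counts and 0.67 (0.45 to 0.88). edgeR's exact test with an assumed BCV of 0.2 also called 0 members.

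Between OSM and IL-6, 2 members were called higher (1.32%) and 1 lower (0.658%), beside 4.24% and 5.42% of 15544 compared genes and 2.65% and 3.55% of the protein-coding genes with the members' minimum. Slc35g2 was at 2.41 (2.15 to 2.68), Slc35e4 at 1.36 (1.25 to 1.47) and Slc4a4 at -1.63 (-1.82 to -1.44). Slc39a1, at 0.97 (0.91 to 1.03), and Slc37a1, at -1.19 (-1.52 to -0.88), were called against vehicle and not against IL-6, and whether these values differ was not tested. This comparison shares the OSM library with that against vehicle. The members' median was -0.04. The interval lay above 0 for 52 members and below for 58, which is 34.2% and 38.2%, beside 33.2% each way over all genes and 40.5% and 38.2% over the protein-coding ones.

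A list of 32 genes held partners of carriers and carriers whose symbol does not start with Slc and a digit. Of these genes, 30 had enough counts. With OSM, 1 was called higher and 1 lower, beside 3.74% and 5.43% of all compared genes. The counts of both called genes were low in at least 1 library. Slco2a1, a prostaglandin transporter, had 10, 16 and 59 counts and a log2 fold change of 2.32 (1.34 to 3.45). Atp7a, a copper-exporting ATPase, had 194, 153 and 23 counts and -3.32 (-4.01 to -2.69). The copper importer Slc31a1, a member, had 1030, 1051 and 1079 counts and -0.17 (-0.30 to -0.05). Of the mitochondrial pyruvate carrier, the subunit Mpc2 was at 0.65 (0.60 to 0.70) and Mpc1 at -0.22 (-0.34 to -0.10). Basigin (Bsg), the chaperone of the Slc16a1 lactate carrier, was at 0.36 (0.33 to 0.38), and the fatty acid translocase Cd36 at -0.66 (-0.68 to -0.63).

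The promoters of the members were searched for a STAT motif, TTCNNNGAA, because OSM acts through STAT3, and for the C/EBP-ATF composite element TGATGCAA, at which ATF4 acts on genes of amino acid supply. Both strands were searched from 250 bases before to 50 after the start of the canonical GENCODE M39 transcript of all 152 members (GRCm39), and no STAT match in a member overlapped a composite element. The STAT motif was in 7 members (4.61%), beside 7.37% of 12698 compared protein-coding genes. The composite element was in 3 members (1.97%), beside 0.559%. None of the 5 called members held either motif in this window (0 of 3 higher and 0 of 2 lower). The windows below are shown because they hold the composite element in an amino acid exchanger and an amino acid transporter, Slc7a11 and Slc38a1, and in the sugar carrier Slc50a1, and, as examples, the STAT motif in Slc7a11 and in Slc25a36. Each runs 5′ to 3′ on the gene's strand, which is the minus strand for all of them, with the motif in capitals. Slc7a11 holds the composite element 2 times, 65 to 58 bases before its start and, in the other direction, 46 to 39 bases before it.
Slc7a11, chr3:50398110-50398139: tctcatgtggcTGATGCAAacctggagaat
Slc7a11, chr3:50398091-50398120: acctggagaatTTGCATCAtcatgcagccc
Slc38a1, chr15:96540316-96540345: tggggggaaacTGATGCAAccagccctggg
Slc50a1, chr3:89178048-89178077: agtggtctcgaTGATGCAAggggtgcgcag
Slc7a11 STAT, chr3:50398226-50398255: gtatgctttgTTCTGGGAAatgctttggat
Slc25a36 STAT, chr9:96993287-96993316: cccacggcccTTCATTGAAgagccccctgg

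None of these 4 genes was called. Their log2 fold changes with OSM were -0.71 for Slc7a11, -0.23 for Slc38a1, 0.18 for Slc50a1 and -0.98 for Slc25a36. The other 5 holders of the STAT motif were at 0.04 for Slc26a6, -0.64 for Slc30a2, 0.15 for Slc35b4, 0.18 for Slc38a9 and -0.26 for Slc46a3. Values on both sides of 0 were thus found among the holders of each motif. Without the length trend Slc7a11 came to 0.10, Slc38a1 to 0.58 and Slc50a1 to -0.37. A match in letters is a description and not a binding site, and its absence from this window says nothing about the factor.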

How the data were processed

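RNA of vehicle-treated, IL-6-treated and OSM-treated ACMs was sequenced as paired reads after poly-T selection. The authors deposited whole-number fragment counts per gene, without normalization, and FPKM made from these counts. The submitters' processing notes list fastp, HISAT2 2.2.1, featureCounts 2.0.6 and edgeR 4.0.16 with mm39. The paper gives other versions of the last 2 tools. Whether counting used the strand is not given in the sources used here, so reads of overlapping genes on opposite strands (58 members) cannot be told apart.

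From the counts, TMM factors (edgeR 4.0.16, R 4.3.3) were computed per pair of libraries over all genes with a count. A gene entered a comparison with 10 counts or more in its pair of libraries, with 95% Clopper-Pearson intervals (scipy 1.17.1), and called when the whole interval lay beyond 2-fold. With 1 library per condition the comparison is of libraries, and no P-value is given. A count of 3, the limit that 0 counts allow, is 0.120, 0.114 and 0.0975 CPM with vehicle, IL-6 and OSM. The calling rule was also run on simulated counts with planted changes. These held no length trend and no real variation between cultures, so that run is no check of the calls given here. Gene lengths and coordinates are those of the deposited annotation, and sequences are from GRCm39.

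Named members include those called, those of highest FPKM, and many of the most abundant and extreme members of the classes of cargo. The extremes of some classes are not named. Among these are the carriers of organic ions and bile acids, whose log2 fold changes with OSM ran from -0.45 to 0.59. Paired mitochondrial carriers and the members nearest to the count minimum are also named. Further members (among them Slc9a2, Slc25a12, Slc25a42, Slc25a51, Slc6a9, Slc7a6, Slc43a2, Slc35c1, Slc35b2, Slc41a2, Slc46a3, Slc38a9 and those near a call) were named after their values were seen. The members, classes and lists were chosen with earlier results of these data known.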

Additional observations from a re-analysis of the deposited data

How the results depend on the processing

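Under each alternative in this paragraph the members called higher and lower, OSM against vehicle, are given beside 3 and 2. A mean of at least 500 counts left 2 and 1, of at least 50 counts 3 and 4. With the 7 genes left out by name, of which Slc2a1 and Slc10a6 were called, there were 5 and 2. The point estimate alone gave 4 and 5 (10.1% and 13.1% of all genes), a limit of 1.5-fold 6 and 10 (8.73% and 11.9%), and of 4-fold 1 and 0 (0.817% and 0.83%). edgeR's exact test gave 3 and 3 with an assumed BCV of 0.2 (4.05% and 5.64%), and 0 and 0 with 0.4 (0.277% and 0.0708%). FPKM with a pseudocount of 0.1 gave 4 and 5 (7% and 8.52%), and with 1 gave 3 and 1 (2.26% and 1.62%). Counts thinned to equal totals gave 3 and 1 (3.56% and 5.36%), and without members that overlap another gene there were 3 and 0, since Slc4a4 and Slc37a1 overlap one. For IL-6 against vehicle only the 1.5-fold limit gave a call, 0 higher and 1 lower (Slc41a2), beside 2.95% and 2.88% of all genes. For OSM against IL-6, beside 2 and 1, the counts were 2 and 3 with total counts (3.5% and 6.3% of all genes), 1 and 1 from 500 counts, 3 and 3 from 50, 4 and 1 with the 7 genes, 4 and 6 by point estimate (10% and 12.7%), 7 and 10 at 1.5-fold (8.78% and 11.9%), 1 and 0 at 4-fold (0.971% and 0.798%), 0 and 0 with a BCV of 0.4 (0.367% and 0.129%), 3 and 4 with a pseudocount of 0.1 (6.95% and 8.18%), 2 and 2 without the length trend (3.42% and 4.93%), and 2 and 0 without overlapping members. Fewer genes enter in some of these. For the others the cause was not tested. DESeq2 factors, no count minimum and leaving out the 3 members that encode no carrier kept each count within 1.5 times, and no median moved by 0.1 or more. Alternatives gave 330 values for 55 members, which take in the most abundant and extreme of every class and are not all named above. Of these values, 276 stayed within the counting interval. Another sign was found for 15, 11 of them with the length trend removed and none of a called member. The other 4 were Slc25a29 with total counts (-0.02) and thinned counts (-0.05), Slc2a8 with total counts (-0.01) and Slc7a5 with total counts (-0.05). No paired analysis was possible because each condition has 1 library, and for the same reason no replicate could be left out. What varies between cultures is not covered by any interval here.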
